A study of Bos taurus with 10 samples.

Results

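The genes described here are the cytokines, chemokines and their receptors measured in bovine fat. They were taken by symbol from the deposited gene table: every gene whose name begins as a CC, CXC or CX3C chemokine or chemokine receptor, an interleukin or interleukin receptor, a TNF superfamily ligand (TNFSF) or receptor (TNFRSF), or a colony-stimulating factor or its receptor, leaving out CSF1R. This gave 89 of the 12674 listed genes: 40 ligands, 46 receptors or receptor subunits, and 3 others (the antagonists IL1RN and IL18BP and the enzyme IL4I1). The rule reads names and no measured value. The libraries were bulk RNA-seq of intramuscular fat (5 libraries) and subcutaneous fat (5 libraries) from 5 adult female Angus-cross heifers, with no treatment, genotype or age in years given in the labels. Intramuscular fat is the marbling fat between the fibres of a muscle, and subcutaneous fat lies beneath the skin. The study asked why marbling fat is laid down later and more slowly. Both depots come from the same 5 animals. The main p-values below are from a fit on depot alone, which measures the spread between animals within a depot and leaves out the pairing. Results of a fit with the replicate number as a block are also given.

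Cytokines and chemokines are secreted or membrane-bound proteins that carry signals between immune, stromal and fat cells. Chemokines bind receptors coupled to G proteins and steer migrating leukocytes, most interleukins signal through JAK kinases and STAT factors, and the interleukin-1, interleukin-17 and TNF receptor families signal largely through TRAF adaptors and NF-kB. In adipose tissue the resident macrophages, the stromal progenitors that give rise to fat cells, the vessel cells and the fat cells themselves are all known sources of these signals, and TNF signalling is known to restrain fat cell formation and to promote lipid release.

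The total of counts over listed genes was 9392739 to 14836808 in intramuscular libraries and 13776094 to 17685678 in subcutaneous libraries. Values are CPM, the counts scaled to a common library size. The fat cell markers ADIPOQ, PLIN1 and FABP4 were present in every library, with ADIPOQ at 301.1 to 1104 CPM in intramuscular fat and 446.4 to 1162 CPM in subcutaneous fat. Intramuscular libraries also held muscle RNA: the 10 muscle genes with values (of 32 listed) summed to 375.5 to 1970 CPM there, against 1.76 to 7.69 CPM in subcutaneous fat, where NMRK2, LRRC30, ANO5 and CACNG6 were at 0 in every library. Intramuscular replicates 1 (1970 CPM) and 3 (1162 CPM) held the most. Macrophage markers summed to 196.7 to 417.1 CPM in intramuscular fat and 201.0 to 1026 CPM in subcutaneous fat, with 0 of 12 called higher and 4 lower. Called means an adjusted p under 0.05 by edgeR's test. Of all tested genes 12.2% were called, 6.75% higher and 5.49% lower. Granulocyte and mast cell markers summed to 27.2 to 64.5 against 64.7 to 352.8 CPM (0 of 7 higher, 2 lower), endothelial markers to 2067 to 2632 against 2576 to 4646 CPM (0 of 13 higher, 4 lower), stromal progenitor markers to 10140 to 13440 against 10570 to 21360 CPM (0 of 15 higher, 4 lower) and adipocyte markers to 5764 to 19540 against 21590 to 27930 CPM (0 of 11 higher, 2 lower). Mural cell markers summed to 1031 to 1745 against 600.3 to 978.1 CPM (3 of 6 higher, 0 lower), T and NK cell markers to 28.5 to 38.0 against 20.3 to 38.7 CPM (1 of 12 higher, 0 lower), B and plasma cell markers to 7.43 to 15.4 against 13.7 to 29.7 CPM (0 of 4 higher, 1 lower), dendritic cell markers to 16.6 to 41.8 against 18.3 to 49.7 CPM (0 of 6 in either direction) and nerve and Schwann cell markers to 349.0 to 745.2 against 525.7 to 1406 CPM (6 of 9 higher, 2 lower), where NEFM was at 0 in every subcutaneous library. The part of any of these in the differences below was not tested, except where a value without libraries is given. Bulk RNA cannot tell fewer cells of a type from less RNA per cell.

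Most of these genes were weakly expressed. The median of the 89 was 6.42 CPM, and the 86 that were tested had a median of 6.46 CPM, against 25.3 CPM over all tested genes. A mean under 5 CPM was found for 40 of the 89, a mean over 100 CPM for 9. CSF1, the growth factor that maintains macrophages, and CXCL12, a stromal chemokine that retains CXCR4-bearing cells, together made up 52.3% of all ligand CPM. Per kilobase of gene length, averaged over the 10 libraries, the leading ligands were CCL14 (126.6), IL17D (125.6), CXCL12 (88.2), CSF1 (83.5), CXCL16 (34.9) and TNFSF12 (32.3 CPM per kb). CCL14 is a plasma chemokine in humans, IL17D is an interleukin-17 family cytokine, CXCL16 is a membrane-tethered chemokine that binds CXCR6, and TNFSF12 is the cytokine TWEAK. The leading receptors on the same scale were TNFRSF1A (70.7), the main TNF receptor of most cells, IL13RA1 (51.0), a subunit of the IL-4 and IL-13 receptor, IL17RC (51.0) and IL17RA (31.4), which pair as the receptor of IL-17A and IL-17F, TNFRSF21 (34.2), also called death receptor 6, and TNFRSF12A (31.1 CPM per kb), the TWEAK receptor. CXCL8, which attracts neutrophils, and CXCL9 and CCL5, which attract T cells, each averaged under 5 CPM in both depots.

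**Figure D1:**
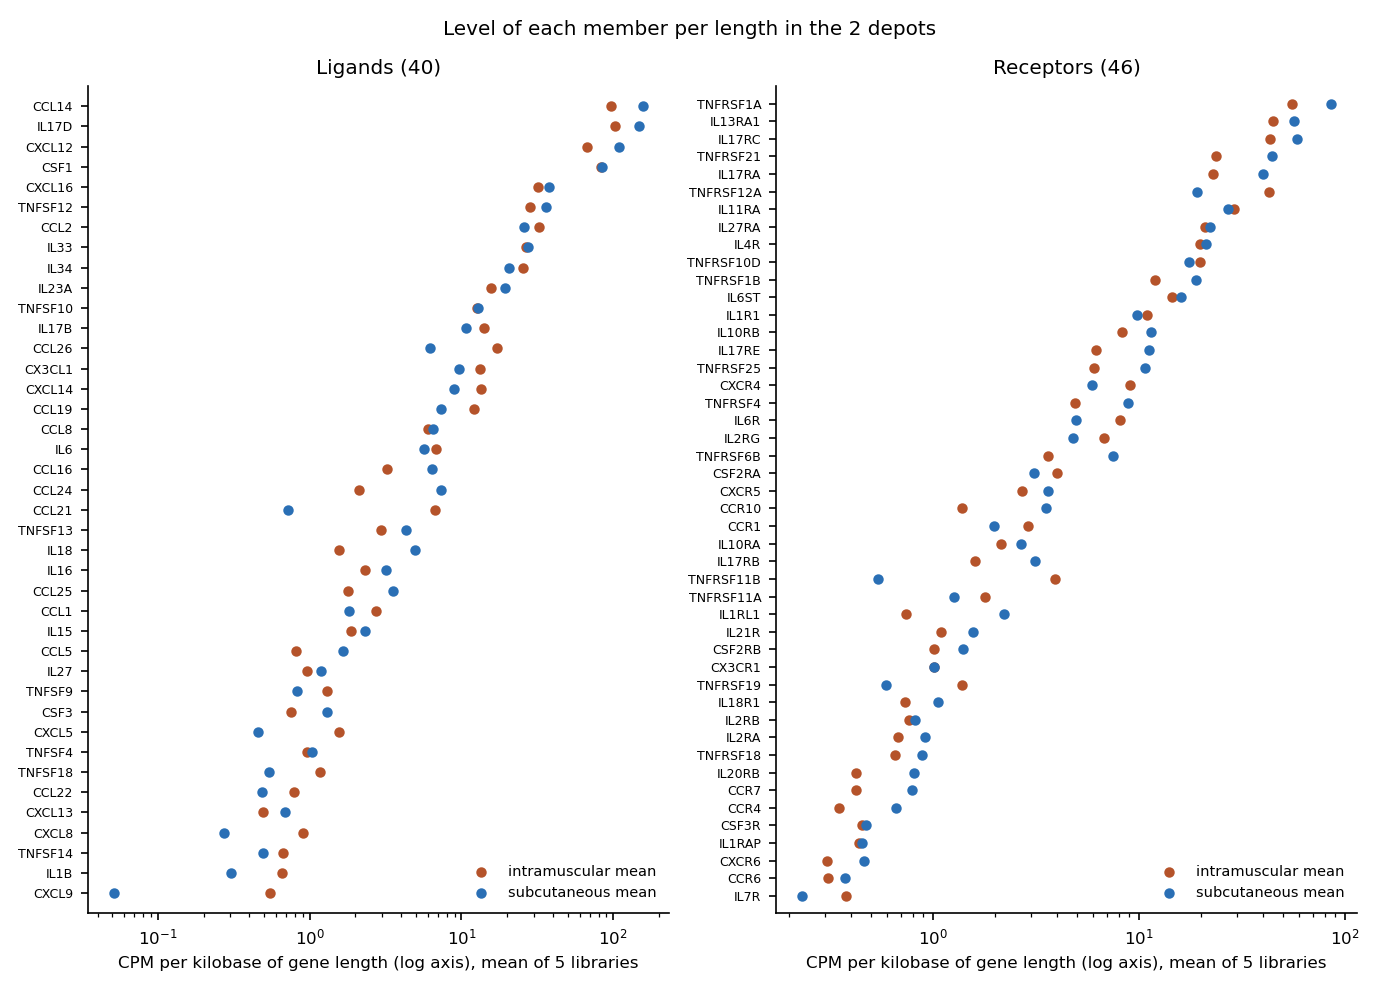
Mean CPM per kilobase of gene length (log axis) for the 40 ligands and 46 receptors, ordered by level over all libraries; each point is the mean of the 5 libraries of a depot. The depots lie close together for most genes, while CCL21, TNFRSF11B and CXCL9 have the widest gaps and lie at low levels in subcutaneous fat.

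Between depots, 2 of the 86 tested genes were higher in intramuscular fat and 6 were lower, by the quasi-likelihood test of edgeR, adjusted by Benjamini-Hochberg over every gene tested. The same test called 6.75% of all genes higher and 5.49% lower, and 12.2% in either direction, against 9.3% of the cytokine and receptor genes. The 2 that rose were TNFRSF12A and CCL26, and the 6 that fell were IL17RA, IL18, CCL24, CXCL12, TNFRSF1A and TNFRSF21. The 5 intramuscular values all lay above the subcutaneous ones for 2 genes, where 7.85% of all genes did so, and all lay below for 5, where 5.04% did so. The median log2 fold change of the 86 was -0.25, against -0.04 over all tested genes, with 30 above 0 and 56 below. Over all 12521 tested genes 5893 lay above 0 and 6628 below. Replicate numbers paired the libraries, and with the replicate number as a block 4 members were higher and 9 lower, where 8.09% and 6.96% of all genes were called. Counts of pairs in the same direction are given below as description only. The share of all genes with such counts was not computed. Without intramuscular replicates 1 and 3, the libraries with the most muscle RNA, 0 members were higher and 1 was lower (TNFRSF25), while 306 genes in all were higher and 67 lower. All 8 called genes had the same sign of fold change in that fit. Leaving out other libraries moved these counts too: 1 member was lower without intramuscular replicate 3 (IL17RA) and 3 without intramuscular replicate 1, 4 were higher without subcutaneous replicate 1 or 2, and 1 was higher without intramuscular replicate 2 or 3 or subcutaneous replicate 3.

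**Figure D2:**
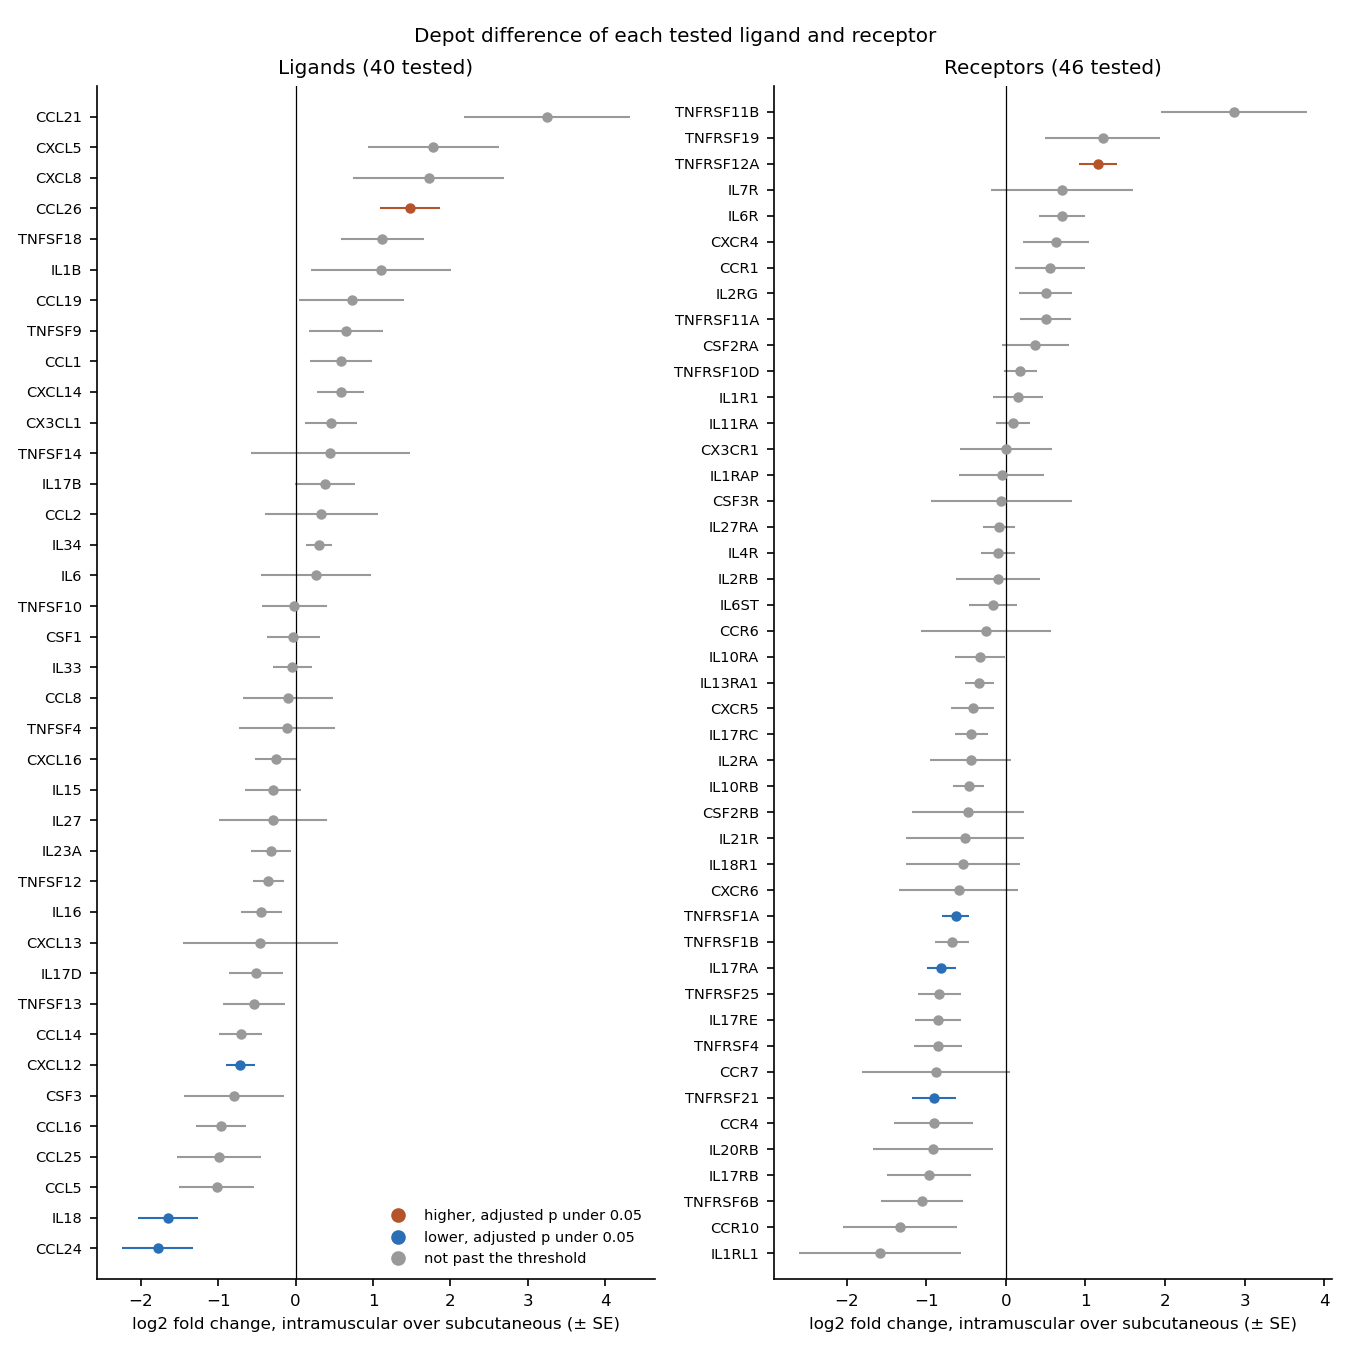
Log2 fold change, intramuscular over subcutaneous, of each tested ligand (38) and receptor (45), with bars of ± 1 SE from the fit. Colour marks genes past the adjusted p threshold of 0.05. The numbers in the panel titles count all 40 ligands and 46 receptors, with those not tested. Of the receptors 31 lie below 0 and 14 above, where 6628 of all 12521 tested genes lie below 0. The widest bars belong to the weakly expressed genes.

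Among the ligands, 1 of 38 rose and 3 fell, which is 10.5% of those tested, against 12.2% of all genes. The median log2 fold change of the ligands was -0.07. With the replicate block 2 were higher. Summed over the 40, ligand RNA was 1274 ± 258.1 CPM in intramuscular fat and 1522 ± 222.1 CPM in subcutaneous fat (SD, n = 5 each), and the depots overlapped, at 860.5 to 1525 against 1266 to 1775 CPM.

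The CC chemokines gave 1 rise and 1 fall among 11 tested (18.2%, against 12.2% of all genes). The called genes were neighbours on the chromosome. CCL26 (eotaxin-3) and CCL24 (eotaxin-2) are, in humans, ligands of the same eosinophil receptor, CCR3. They lie on the same strand of chromosome 25, CCL26 at 34038531 to 34043143 and CCL24 at 34065905 to 34069221 in the coordinates of the deposited table, 22.8 kb apart with 0 listed genes between them. CCL26 had 6.74, 21.2, 18.5, 8.61 and 8.58 CPM in intramuscular replicates 1 to 5, against 5.10, 6.23, 2.11, 5.11 and 4.29 CPM in the subcutaneous ones. Every intramuscular library lay above every subcutaneous library, with intramuscular replicates 2 and 3 highest. CCL26 gave a log2 fold change of 1.48 ± 0.39 (SE; edgeR adjusted p = 0.0273). CCL24 had 2.53, 4.48, 2.19, 2.17 and 3.11 CPM in intramuscular fat, against 15.5, 15.0, 2.36, 6.29 and 10.8 CPM in subcutaneous fat. Subcutaneous replicate 3 sat within the intramuscular range and the other 4 above it, while each of the 5 pairs went down in intramuscular fat. CCL24 gave a log2 fold change of -1.78 ± 0.46 (edgeR adjusted p = 0.0256), and macrophage markers were also lowest in that subcutaneous library, at 201.0 CPM. The call for CCL26 was lost without intramuscular replicate 2 (1.21, edgeR adjusted p = 0.0734), intramuscular replicate 3 (1.30, 0.0807) or subcutaneous replicate 3 (1.30, 0.0541). The call for CCL24 was lost in 4 of 10 such fits, without intramuscular replicate 1 (0.0567), 3 (0.0694) or 4 (0.0537) or subcutaneous replicate 2 (0.0563). The ratio of CCL26 to CCL24 per length was 4.91, 8.72, 15.5, 7.31 and 5.08 in intramuscular libraries, against 0.606, 0.763, 1.65, 1.5 and 0.729 in subcutaneous libraries. All 5 intramuscular ratios lay above all 5 subcutaneous ones; the ratio was chosen after both values had been seen.

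Other CC chemokines did not pass the threshold. CCL21, which draws CCR7-bearing cells to lymphatic vessels and lymph nodes, had 3.37, 12.3, 6.14, 6.98 and 9.19 CPM in intramuscular fat, against 0, 3.59, 0, 0.470 and 0 CPM in subcutaneous fat. Subcutaneous replicate 2 alone reached the intramuscular range. Its log2 fold change was 3.25 ± 1.07 (edgeR adjusted p = 0.0632), and it passed with the replicate block (4.75, edgeR adjusted p = 0.0154) and without subcutaneous replicate 2 (5.85, 0.00336). Limma voom also called CCL21 (5.64, limma adjusted p = 0.00999). It did not pass in the other 9 fits that left out a library (2.92 to 3.44, edgeR adjusted p up to 0.126) or with DESeq2 (0.118). CCL16, a liver-expressed chemokine in humans, had 7.30, 10.7, 9.21, 5.63 and 4.46 CPM in intramuscular fat against 24.7, 13.5, 14.7, 11.7 and 8.44 CPM in subcutaneous fat (-0.97 ± 0.32, edgeR adjusted p = 0.0649, and 0.0391 with the block). It was lower in 5 of 5 pairs, with ranges that overlapped. CCL14, 2.8 kb from CCL16 on chromosome 19, averaged 86.7 ± 15.2 CPM in intramuscular fat and 141.7 ± 63.6 CPM in subcutaneous fat (edgeR adjusted p = 0.109), and passed without subcutaneous replicate 2 (-0.88, 0.0423). CCL2, the main chemokine for monocytes, ranged over 4.59 to 90.7 CPM in intramuscular fat and 11.2 to 121.9 CPM in subcutaneous fat, so the spread within a depot exceeded the depot difference (0.33 ± 0.73, edgeR adjusted p = 0.796). CCL22, a chemokine of dendritic cells and macrophages, was too low to test, at 0.562 to 3.52 against 0 to 4.35 CPM.

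Of the 7 CXC and CX3C chemokines tested, 1 changed (14.3%, against 12.2% of all genes). CXCL12 had 214.0, 327.8, 286.6, 321.2 and 219.2 CPM in intramuscular fat, against 439.6, 450.6, 340.0, 548.9 and 468.4 CPM in subcutaneous fat. The highest intramuscular library lay below the lowest subcutaneous library. This gave a log2 fold change of -0.72 ± 0.19 (edgeR adjusted p = 0.0271), and the gene lies on chromosome 28 at 45022356 to 45051627. The call was lost without intramuscular replicate 1 (0.0582), 3 (0.0620) or 5 (0.0636) or subcutaneous replicate 4 (0.0513), with fold changes of -0.63 to -0.74. Summed stromal progenitor markers, from cells known to make CXCL12, were 10140 to 13440 CPM in intramuscular fat and 10570 to 21360 CPM in subcutaneous fat. Its receptor CXCR4 had 9.17, 16.5, 19.4, 13.6 and 21.4 CPM in intramuscular fat against 22.4, 11.5, 3.60, 7.23 and 7.15 CPM in subcutaneous fat. Subcutaneous replicate 1 was the highest of all 10 libraries, the other 4 subcutaneous libraries lay at or below 11.5 CPM, and the difference did not pass (0.63 ± 0.41, edgeR adjusted p = 0.322). Without that library it passed (1.12, 0.0485). CX3CL1, the membrane-bound chemokine of vessel walls, averaged 45.2 ± 17.5 against 33.0 ± 14.3 CPM (edgeR adjusted p = 0.382), CXCL14 25.9 ± 7.76 against 17.3 ± 6.46 CPM (0.218) and CXCL16 58.9 ± 20.5 against 70.4 ± 17.3 CPM (0.545). CXCL9, an interferon-gamma-induced chemokine for T cells, had counts of 50, 18, 5, 17 and 8 in intramuscular libraries and 0, 0, 0, 6 and 6 in subcutaneous libraries. Intramuscular replicate 1 alone held 50 counts. The filter on low counts removed the gene, edgeR without that filter did not call it (3.30, adjusted p = 0.0607), and the authors' deposited table gave it a log2 fold change of 3.40 with an adjusted p of 0.0188.

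Among 13 interleukins and colony-stimulating factors, IL18 alone changed (7.69%, against 12.2% of all genes). IL18 is an interleukin-1 family cytokine that macrophages and epithelia release after cleavage by caspase-1. It had 3.09, 2.64, 1.68, 2.03 and 2.7 CPM in intramuscular fat, against 10.8, 4.98, 3.17, 11.3 and 7.76 CPM in subcutaneous fat. All intramuscular values lay below all subcutaneous values, by a narrow margin at subcutaneous replicate 3. The log2 fold change was -1.65 ± 0.39 (edgeR adjusted p = 0.0170; chromosome 15, 22475988 to 22502331). The call was lost without intramuscular replicate 3 (-1.54, edgeR adjusted p = 0.0514). Its receptor subunit IL18R1 (-0.53 ± 0.72, edgeR adjusted p = 0.646) and its soluble inhibitor IL18BP (-0.09 ± 0.30, 0.867) did not pass. CSF1 had 141.0, 423.8, 280.9, 444.4 and 542.2 CPM in intramuscular fat against 470.5, 563.4, 210.8, 284.7 and 339.0 CPM in subcutaneous fat. The ranges overlapped over most of their width, and the log2 fold change was -0.03 ± 0.34 (edgeR adjusted p = 0.966). CSF1R, the receptor of CSF1 and IL34 and a macrophage marker, was at 28.8 to 72.7 CPM in intramuscular fat and 13.7 to 144.5 CPM in subcutaneous fat (-1.07, edgeR adjusted p = 0.132). IL34 averaged 63.4 ± 1.98 CPM in intramuscular fat and 51.3 ± 12.1 CPM in subcutaneous fat (0.31 ± 0.17, edgeR adjusted p = 0.242). IL33, a nuclear alarmin of stromal and endothelial cells, averaged 63.5 ± 14.9 against 65.5 ± 21.4 CPM (edgeR adjusted p = 0.928). IL6, an inflammatory cytokine, ranged over 0.281 to 16.2 CPM against 2.11 to 10.5 CPM (0.26 ± 0.71, edgeR adjusted p = 0.838).

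None of the 7 TNF superfamily ligands passed, where 12.2% of all genes did, and the median log2 fold change of the 7 was -0.02. By edgeR's test 0 of them had an unadjusted p under 0.05, and DESeq2 and limma voom called 0. TNFSF12 (TWEAK), the most abundant, had 46.1, 37.9, 34.5, 37.8 and 29.4 CPM in intramuscular fat against 44.5, 36.1, 53.0, 35.1 and 67.8 CPM in subcutaneous fat. The ranges overlapped, and the pairs split 3 higher and 2 lower (-0.35 ± 0.20, edgeR adjusted p = 0.260). TNFSF10 (TRAIL), which triggers death receptors, averaged 15.0 ± 7.70 against 15.2 ± 7.30 CPM, and TNFSF18 (GITR ligand) 4.07 ± 2.04 against 1.86 ± 1.07 CPM (edgeR adjusted p = 0.173).

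Of 45 receptors tested, 1 rose and 3 fell, 8.89% in all, against 12.2% of all genes. The median log2 fold change of the receptors was -0.33. By edgeR's test 11 had an unadjusted p under 0.05 (24.4%, against 30.7% of all genes). With the replicate block 2 were higher and 5 lower. Receptor RNA summed to 1090 to 1436 CPM in intramuscular fat, against 1466 to 1823 CPM in subcutaneous fat, and the ranges did not overlap. The means were 1319 ± 144.4 and 1634 ± 129.3 CPM (SD, n = 5 each). IL13RA1 and TNFRSF1A alone made up 25.2% of this sum.

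The TNF receptor superfamily held 3 of the 4 called receptors. Of 11 tested, 1 rose and 2 fell (27.3%, against 12.2% of all genes). An unadjusted p under 0.05 was found for 7 by edgeR's test (63.6%, against 30.7% of all genes). TNFRSF12A (Fn14), the receptor of TWEAK and a gene induced in injured and regenerating tissue, had 48.0, 54.0, 58.5, 50.5 and 61.3 CPM in intramuscular fat, against 11, 23.7, 30.2, 27.6 and 29.3 CPM in subcutaneous fat. The lowest intramuscular library was above the highest subcutaneous library, and subcutaneous replicate 1 was the lowest of all. The log2 fold change was 1.16 ± 0.24 (edgeR adjusted p = 0.00887; chromosome 25, 2435936 to 2439695), and the call held in all 10 fits that left out a library. Without intramuscular replicates 1 and 3 the fold change was 1.18 with an edgeR adjusted p of 0.0600. In those 2 libraries, which held the most muscle RNA, TNFRSF12A had 48.0 and 58.5 CPM, against 50.5 to 61.3 CPM in the other intramuscular libraries. The part of muscle RNA was not tested. TNFRSF12A and its ligand TNFSF12 gave fold changes of 1.16 and -0.35, and the difference between them was not tested.

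The TNF receptor TNFRSF1A had 131.6, 161.2, 123.8, 122.0 and 136.1 CPM in intramuscular fat, against 236.3, 180.5, 193.8, 165.4 and 269.5 CPM in subcutaneous fat. All intramuscular values lay below all subcutaneous values, the closest being intramuscular replicate 2 and subcutaneous replicate 4. The log2 fold change was -0.63 ± 0.17 (edgeR adjusted p = 0.0286; chromosome 5, 104024027 to 104036846). It lost the call without intramuscular replicate 1 (0.0567), 3 (0.0807), 4 (0.0641) or 5 (0.0562) or subcutaneous replicate 5 (0.0509). TNFRSF1B, the second TNF receptor, mainly of leukocytes and endothelium, had 45.2, 72.8, 41.4, 39.5 and 49.7 CPM against 106.8, 90.9, 64.4, 61.3 and 73.6 CPM. It was lower in 5 of 5 pairs, with overlap from intramuscular replicate 2. It narrowly missed the threshold (-0.68 ± 0.21, edgeR adjusted p = 0.0532) and passed with the block (0.0250), without intramuscular replicate 2 (0.0215) or without subcutaneous replicate 4 (0.0446). TNF itself was not analysed here.

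TNFRSF21, a death-domain receptor, had 72.0, 72.8, 54.5, 111.0 and 112.7 CPM in intramuscular fat, against 250.7, 185.7, 107.1, 137.7 and 110.0 CPM in subcutaneous fat. Pairs 1 to 4 were lower in intramuscular fat, and pair 5 was at 112.7 against 110.0 CPM. The log2 fold change was -0.90 ± 0.27 (edgeR adjusted p = 0.0478; chromosome 23, 20418222 to 20482057), and the call was lost with the block (0.0511) and in 6 of 10 fits that left out a library, without intramuscular replicate 1, 2 or 3 or subcutaneous replicate 1, 2 or 4 (0.0571 to 0.106).

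Further receptors of the family turned on the fit. TNFRSF25 (death receptor 3), a T cell receptor for TNFSF15, had 20.2, 11.5, 12.8, 8.41 and 7.43 CPM against 25.0, 20.6, 26.0, 18.7 and 17.2 CPM, and only intramuscular replicate 1 reached the subcutaneous range. Its log2 fold change was -0.84 ± 0.27 (edgeR adjusted p = 0.0586), with 0.0202 under the block, 0.0161 without intramuscular replicate 1, and -1.24 with 0.0249 without intramuscular replicates 1 and 3. TNFRSF4 (OX40), a costimulatory receptor of T cells, averaged 10.6 ± 3.59 against 19.2 ± 6.38 CPM (edgeR adjusted p = 0.0804, and 0.0360 with the block); it overlaps SDF4 by 539 bases on the same strand, and SDF4 was itself called lower. TNFRSF11B (osteoprotegerin), a soluble decoy that binds TNFSF11, had 4.03, 6.02, 6.14, 4.20 and 23.4 CPM in intramuscular fat, against 0.194, 4.11, 0.559, 0 and 1.23 CPM in subcutaneous fat. Intramuscular replicate 5 stood far above the rest and subcutaneous replicate 2 overlapped the intramuscular range. It was higher in 5 of 5 pairs (2.87 ± 0.91, edgeR adjusted p = 0.0565), and passed with the block (3.54, 0.0192) and without subcutaneous replicate 2 (4.15, 0.0168). It did not pass in the other 9 fits that left out a library, with 2.08 and an edgeR adjusted p of 0.16 without intramuscular replicate 5. TNFRSF10D, named for a human decoy receptor of TRAIL and placed on an unassigned scaffold, was abundant in both depots at 111.5 ± 21.9 against 98.5 ± 26.9 CPM (edgeR adjusted p = 0.590). TNFRSF18 (GITR) was too low to test, at 0.146 to 2.06 CPM against 0.136 to 2.26 CPM.

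**Figure D3:**
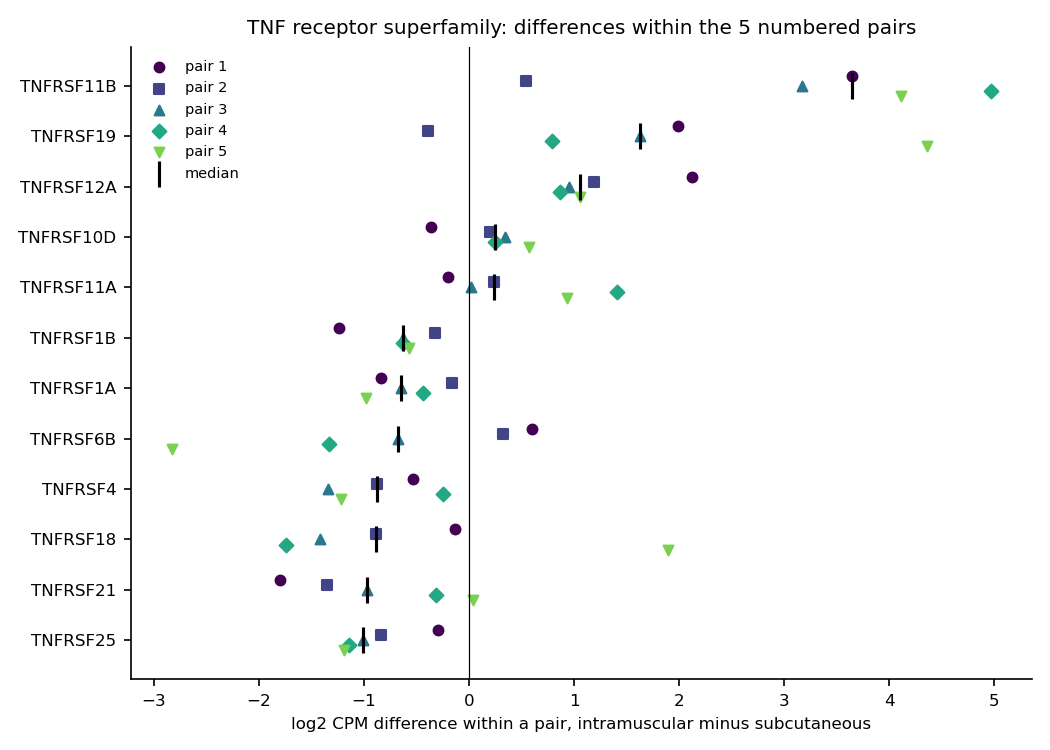
Log2 CPM difference within each numbered pair, intramuscular minus subcutaneous, for the 12 TNF receptor superfamily genes; a symbol is a pair and a bar the median of the 5 pairs. TNFRSF11B and TNFRSF12A lie above 0 in 5 of 5 pairs, and TNFRSF1A, TNFRSF1B, TNFRSF25 and TNFRSF4 below 0 in 5 of 5. The share of all genes with 5 of 5 pairs on the same side was not computed.

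Of 25 interleukin and colony-stimulating factor receptors, IL17RA was the gene that passed (4.0%, against 12.2% of all genes), and it fell. The median log2 fold change of these receptors was -0.32, with 19 of 25 below 0, against 6628 of all 12521 tested genes. IL17RA, the subunit shared by most interleukin-17 receptors, had 55.9, 89.6, 79.8, 96.6 and 95.2 CPM in intramuscular fat, against 112.7, 145.0, 151.5, 139.4 and 182.2 CPM in subcutaneous fat. No library of either depot entered the range of the other, and intramuscular replicate 1 was the lowest. The log2 fold change was -0.81 ± 0.18 (edgeR adjusted p = 0.0142; chromosome 5, 108808131 to 108823757), and the call held in all 10 fits that left out a library. Without intramuscular replicates 1 and 3 it was -0.64 with an edgeR adjusted p of 0.101.

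The other interleukin-17 receptors did not pass. IL17RE, the partner of IL17RA in the receptor of IL-17C, had 5.90, 17.0, 10.7, 15.4 and 17.9 CPM in intramuscular fat, against 25.7, 32.4, 25.7, 18.7 and 18.0 CPM in subcutaneous fat. The ranges touched but did not overlap (-0.85 ± 0.29, edgeR adjusted p = 0.0712). IL17RC, the partner for IL-17A and IL-17F and 1.4 kb from IL17RE on chromosome 22, averaged 121.9 ± 33.5 against 164.4 ± 29.3 CPM and was lower in 5 of 5 pairs (-0.43 ± 0.20, edgeR adjusted p = 0.167). IL17RB, the receptor subunit for IL-25, averaged 4.44 ± 1.73 against 8.66 ± 7.23 CPM, with 2 of 5 pairs higher (edgeR adjusted p = 0.236). Of the ligands of the family with values, IL17D had 42.7, 83.3, 64.4, 57.1 and 59.9 CPM in intramuscular fat against 153.9, 130.6, 65.6, 46.3 and 41.9 CPM in subcutaneous fat, where replicates 1 and 2 stood apart from the rest (-0.51 ± 0.34, edgeR adjusted p = 0.335), and IL17B averaged 13.0 ± 4.04 against 9.94 ± 6.35 CPM (0.533).

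**Figure D4:**
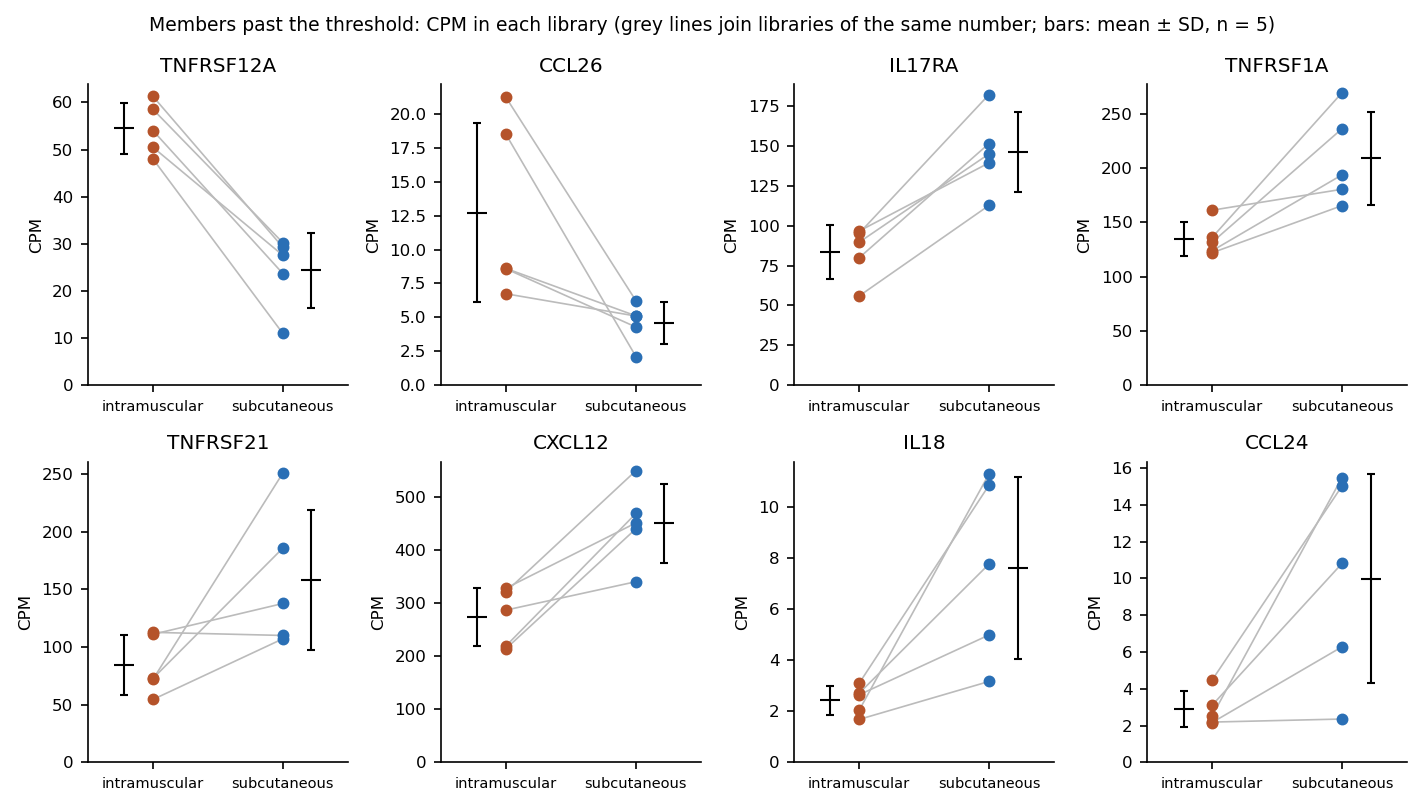
CPM of the 8 genes past the threshold in each library, with intramuscular libraries on the left; grey lines join libraries of the same number and bars are the mean ± SD (n = 5). TNFRSF12A, CCL26, IL17RA, IL18, CXCL12 and TNFRSF1A show no overlap between depots, while CCL24 and TNFRSF21 overlap.

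No receptor of the interleukin-6 family passed. IL6R, the ligand-binding subunit, had 47.7, 53.9, 38.0, 24.3 and 37.1 CPM in intramuscular fat against 41.5, 24.4, 14.0, 25.0 and 18.5 CPM in subcutaneous fat. It was higher in 4 of 5 pairs but overlapped (0.70 ± 0.29, edgeR adjusted p = 0.119), and passed without subcutaneous replicate 1 (0.97, 0.0271). The shared signalling subunit IL6ST averaged 64.2 ± 17.7 against 71.7 ± 30.3 CPM (edgeR adjusted p = 0.756) and IL11RA, the interleukin-11 receptor, 58.6 ± 7.40 against 55.0 ± 19.1 CPM (0.811). The type 2 receptor subunits IL13RA1 and IL4R averaged 177.0 ± 32.0 against 223.0 ± 39.1 CPM (0.228) and 76.2 ± 16.6 against 81.5 ± 20.4 CPM (0.796). The IL-33 receptor IL1RL1, found on mast cells and regulatory T cells, had 0.843, 2.79, 3.07, 1.2 and 0.743 CPM in intramuscular fat against 12.1, 2.79, 0, 10.9 and 0.272 CPM in subcutaneous fat. Subcutaneous replicates 1 and 4 were high and replicates 3 and 5 lay below every intramuscular library, and the difference did not pass (-1.58 ± 1.02, edgeR adjusted p = 0.313; -0.51 with the block and 0.22 with limma voom).

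None of the 9 chemokine receptors passed, where 12.2% of all genes did. An unadjusted p under 0.05 by edgeR's test was found for 0 of the 9, and DESeq2 and limma voom called 0 of these receptors. All but CXCR4, CXCR5 and CCR1 averaged under 5 CPM. Their median log2 fold change was -0.42. CCR10, the skin-homing receptor of T cells, averaged 1.53 ± 1.70 against 3.90 ± 1.10 CPM and was lower in 5 of 5 pairs (-1.34 ± 0.72, edgeR adjusted p = 0.224). CCR4, also a skin-homing receptor, averaged 0.912 ± 0.449 against 1.73 ± 0.488 CPM, again lower in 5 of 5 pairs (-0.91 ± 0.49, edgeR adjusted p = 0.231). CXCR5, the B cell follicle receptor, averaged 8.6 ± 2.57 against 11.5 ± 2.65 CPM (edgeR adjusted p = 0.318).

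Signalling genes downstream were counted as lists. The JAK-STAT-SOCS list held 25 genes, among them CISH and the regulators PIAS1 to PIAS4, PTPN6 and PTPN11. By edgeR's test 1 rose and 0 fell (4.0%, against 12.2% of all genes). An unadjusted p under 0.05 was found for 5 (20%, against 30.7% of all genes), and DESeq2 called 1 lower. The median log2 fold change of the list was 0.09, against -0.04 over all genes. The gene that rose was PIAS1, a SUMO ligase that restrains STAT factors, at 16.1 ± 2.7 against 8.46 ± 1.40 CPM (0.93 ± 0.21, edgeR adjusted p = 0.0138), and with the replicate block 2 rose, PTPN11 (SHP-2 phosphatase) joining it (0.90, 0.0480). PTPN6 (SHP-1 phosphatase) at -0.52 (edgeR adjusted p = 0.0595) and JAK3 at -0.57 (0.0848) did not pass. Of 38 NF-kB and TRAF pathway genes, 2 rose and 2 fell (10.5%, against 12.2% of all genes). The median of the 38 was -0.16, and with the block 1 rose and 1 fell. TRAF5, an adaptor of TNF receptors, was at 9.57 ± 3.54 CPM in intramuscular fat and 2.44 ± 1.23 CPM in subcutaneous fat (1.96 ± 0.40, edgeR adjusted p = 0.00921), with all intramuscular values above all subcutaneous values. BIRC2, a ubiquitin ligase that binds TRAF2, rose by 0.51 on the log2 scale (0.0498, and 0.0676 with the block). FADD, the death receptor adaptor, was at 14.2 ± 4.10 against 30.7 ± 13.2 CPM (-1.11 ± 0.29, edgeR adjusted p = 0.0251), and TAB1, a partner of the kinase TAK1, fell by 0.44 (0.0481, and 0.0561 with the block). Of these, the calls for PIAS1 and TRAF5 held in all 10 fits that left out a library, FADD was lost in 5 of them, without intramuscular replicate 1, 2, 3 or 4 or subcutaneous replicate 3 (0.0508 to 0.0705), and BIRC2 and TAB1 stayed in 2 and 1 of them.

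Ligands and receptors of the same pathways outside the name rule gave 1 rise and 4 falls among 29 with values of 44 listed (median -0.14). That is 17.2% of the 29, against 12.2% of all genes. RARRES2 (chemerin), an adipose chemoattractant, was at 73.3 ± 11.2 against 179.2 ± 101.8 CPM (-1.29 ± 0.31, edgeR adjusted p = 0.0188). KIT, the stem cell factor receptor of mast cells, was at 14.2 ± 3.27 against 31.2 ± 9.28 CPM (-1.13 ± 0.24, edgeR adjusted p = 0.0116). MIF, the cytokine macrophage migration inhibitory factor, was at 239.1 ± 59.7 against 510.7 ± 214.5 CPM (-1.09 ± 0.29, edgeR adjusted p = 0.0291). IFNAR2, a type I interferon receptor subunit, was at 19.8 ± 3.20 against 30.0 ± 5.22 CPM (-0.60 ± 0.18, edgeR adjusted p = 0.0483, and 0.0506 with the block). With the block 2 of this list were higher. KIT held its call in all 10 fits that left out a library, RARRES2 was lost without intramuscular replicate 3 (0.0539), and MIF was lost in 5 fits (0.0606 to 0.0718), without intramuscular replicate 1, 2 or 3 or subcutaneous replicate 3 or 5. IFNAR2 stayed in 3 of the 10. Without intramuscular replicates 1 and 3, PIAS1 kept its call (1.05, edgeR adjusted p = 0.0405), and the other genes named here as called in these lists did not.

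At the median, these genes had a wider spread between libraries of a depot than all tested genes. The median SD of log2 CPM within a depot was 0.58 in intramuscular fat and 0.72 in subcutaneous fat for the 86 tested genes, against 0.32 and 0.44 over all tested genes, whose levels were higher. Genes of matched level were not compared, so the part of low counts in this spread was not tested. Intramuscular replicate 1 was the lowest of its depot for 44.2% of the 86, against 29.1% of all genes, and intramuscular replicate 2 the highest for 40.7%, against 18.8%. In subcutaneous fat replicate 3 was the lowest for 37.2%, against 19.6% of all genes, and replicate 5 the highest for 31.4%, against 25.3%. Within its depot, intramuscular replicate 1 had the most muscle RNA, the lowest adipocyte markers (5764 CPM) and the lowest total of counts (9392739). Subcutaneous replicate 3 had the lowest macrophage markers of its depot (201.0 CPM). The part of these traits was not tested.

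**Figure D5:**
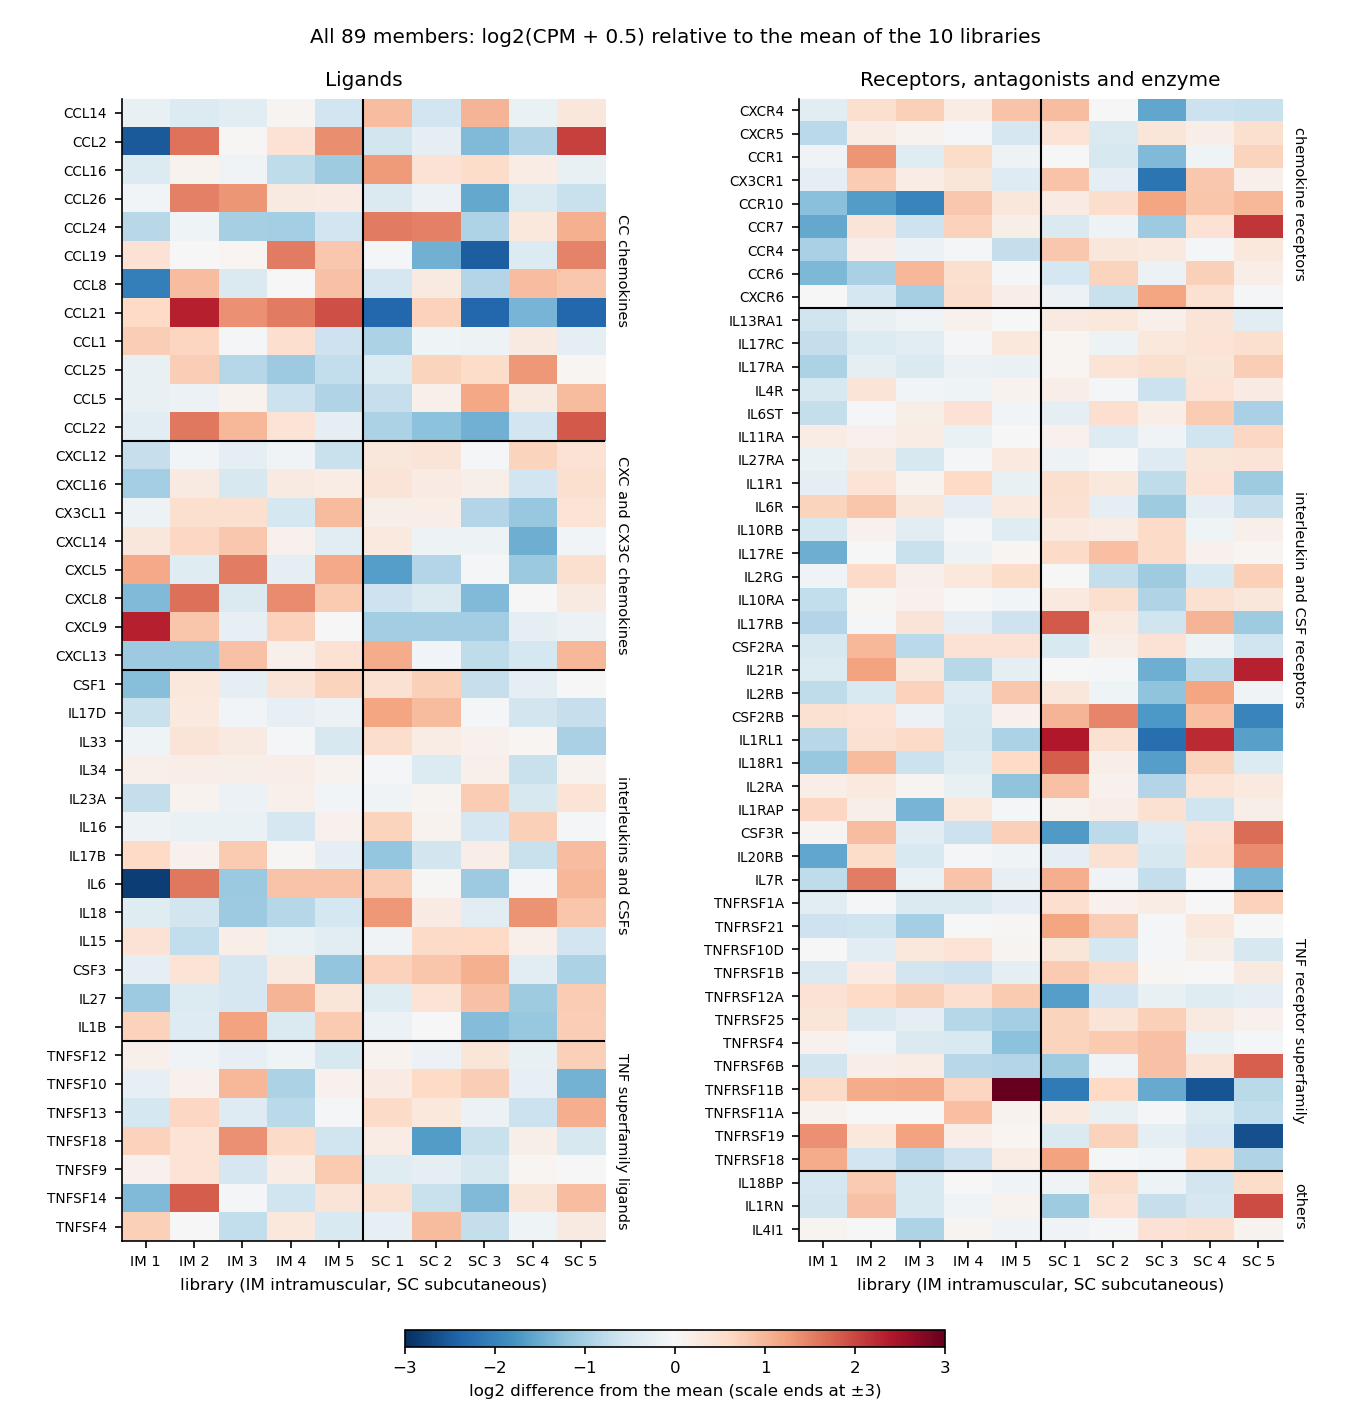
All 89 genes in the 10 libraries as log2(CPM + 0.5) minus the mean of the 10, intramuscular libraries left of the line and subcutaneous libraries right of it. CCL21 and TNFRSF11B are higher on the left and IL18 and TNFRSF1A higher on the right, while intramuscular replicate 1 has CCL2 and IL6 among its deepest blues and subcutaneous replicate 5 has CCL2, CCL22, CCR7 and IL21R among its deepest reds.

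At an adjusted p under 0.05 the authors' deposited table had 4 of the 89 genes higher and 11 lower, where 10.8% and 9.24% of all genes were. The 8 genes called here were all among these 15. The other 7 were TNFRSF11B and CXCL9, higher, and TNFRSF1B, TNFRSF25, CCL16, IL17RE and TNFRSF4, lower.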

How the data were processed

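The authors deposited raw counts per gene and library, as whole numbers for 10 libraries, with gene length, coordinates, and a deposited log2 fold change, p-value and adjusted p-value. The submitters' processing notes name STAR 2.7.11a, Trimmomatic 0.39, DESeq2 1.42.0 and featureCounts 2.0.2. Per the labels' protocols, RNA was fragmented, copied with random hexamers, marked with dUTP in the second strand and amplified for 10 cycles. Build and strand setting: not given in the sources used here. Coordinates are those of the deposited table. Without the strand setting, reads of CXCL16, IL17RB, CXCR6 and IL23A cannot be told apart from those of overlapping genes on the opposite strand.

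Libraries were grouped by title. Counts of all 12674 genes were tested with edgeR 4.0.16 in R 4.3.3 (quasi-likelihood, two-sided, TMM scaling, filterByExpr, depot alone), with Benjamini-Hochberg adjustment at 0.05 over the 12521 genes kept. The filter removed 153, among them CCL22, CXCL9 and TNFRSF18. The fit was tested on simulated counts. SE is the log2 fold change divided by the root of F, and log2 CPM used a prior count of 2. CPM were computed from the counts. Alternatives were DESeq2 size factors, no filter, a replicate block, DESeq2 1.42.0, limma 3.58.1 voom, and libraries left out.

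Both depots came from the same 5 heifers by the design text. Deviations from the depot means of libraries with the same number correlated at 0.102 to 0.237, and each of the 10 was closest to its own number, so numbers were taken as pairs.

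Named genes were those past the threshold, the 6 ligands and 6 receptors of highest mean CPM, those with no overlap between depots, partners of called genes and up to 4 of smallest p per pathway list. CXCL9, CCL22, TNFRSF18, TNFRSF1B, TNFRSF11B, TNFRSF25, TNFRSF4, CCL16, CCL21, IL6R, CCL2, IL6 and IFNAR2 were added after their values were seen, as were other genes given by their means alone. CSF3R and CCR7 are also cell markers, and KIT and CSF1R stand in a marker and a pathway list. The result of 1 gene that the rule names is not reported here. The genes and the lists were chosen with earlier results of these data known.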

Additional observations from a re-analysis of the deposited data

Results flagged for a closer look

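Among 178 groups of 5 libraries (89 genes in 2 depots), 13 held a value set far apart from the other 4 by Dixon's criterion. Its chance rate of about 1 in 20 groups holds for normally distributed values. CPM of weakly expressed genes need not have that form, so whether 13 exceeds chance was not tested. Subcutaneous replicate 5 was the high library in 5 of the 13: CCL2 at 122 CPM (others 11.2 to 23.7), CCL22 at 4.35 (0 to 0.411), CCR7 at 5.92 (0.186 to 1.47), IL1RN at 14.0 (1.29 to 4.47) and IL21R at 16.3 (0.745 to 2.90). Granulocyte and mast cell markers (352.8 CPM) and macrophage markers (1026 CPM) were also highest in that library, and their part was not tested.

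In subcutaneous fat CCL21 was high in replicate 2 at 3.59 CPM (0 to 0.470) and IL10RA low in replicate 3 at 3.48 (8.52 to 9.75). In intramuscular fat IL18BP at 27.2 CPM (10.7 to 15.5) and TNFSF14 at 3.96 (0 to 1.15) were high in replicate 2, CXCL9 at 4.68 (0.365 to 1.32) in replicate 1, TNFRSF11A at 9.15 (4.6 to 5.07) in replicate 4 and TNFRSF11B at 23.4 (4.03 to 6.14) in replicate 5, while IL4I1 was low in replicate 3 at 0.585 (1.4 to 1.69).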

How the results depend on the processing

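With the replicate block, 4 members were higher, with 2 ligands higher, 2 receptors higher and 5 lower, 2 JAK-STAT-SOCS genes higher, 1 NF-kB and TRAF gene higher and 1 lower, and 2 related genes higher. DESeq2 gave 4 members higher and 11 lower, 2 ligands higher, 2 receptors higher and 7 lower, 1 JAK-STAT-SOCS gene lower, 4 NF-kB genes lower and 2 related genes higher. Limma voom gave 4 members higher, 2 ligands higher and 1 lower, 2 receptors higher and 5 lower, and 1 NF-kB gene higher. DESeq2 size factors in edgeR gave 1 NF-kB gene lower. Without intramuscular replicates 1 and 3, 0 members were higher and 1 lower, with 0 ligands in either direction, 0 receptors higher and 1 lower, and 0 NF-kB or related genes in either direction; that fit has fewer libraries, and 306 genes in all were higher and 67 lower. Leaving out each library in turn gave 1 to 4 members higher and 1 to 6 lower, 0 to 2 ligands higher and 0 to 4 lower, 1 to 3 receptors higher and 1 to 3 lower, 1 JAK-STAT-SOCS gene higher and 0 to 1 lower, 1 to 2 NF-kB genes higher and 0 to 2 lower, and 1 to 2 related genes higher and 1 to 4 lower. Over all genes those fits gave 494 to 1008 higher and 263 to 887 lower.

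Among the 86 tested members the sign turned, without a call, in 1 with DESeq2 size factors or DESeq2 (TNFSF10), 6 with the block and 9 with voom, IL1RL1, IL1RN, IL21R, CSF2RB and CSF3R among the last. Of the genes followed through every setting it turned for CCL2 (-0.06 to 1.47 with a library left out), CSF1 (-0.21 to 0.18 with a library left out, and 0.33 without intramuscular replicates 1 and 3), CXCL16 (0.06 without those 2), IL18BP (-0.39 to 0.05, and 0.17 without those 2), IL18R1 (-0.94 to 0.20), IL33 (-0.22 to 0.10, and 0.00 with the block and with voom) and IL6 (-0.25 to 0.57, -0.07 with the block and -0.27 with voom). The cause was not tested. Voom also lost CCL24 (adjusted p = 0.113) and IL18 (0.0505). It gained CCL21 (0.00999), TNFRSF25 (0.0325), TNFRSF11B (0.0381) and TNFRSF1B (0.0494). No filter changed no call among the 8 genes past the threshold. The block changed calls as given beside the results and no other among the members. The alternatives for the pathway lists were chosen after seeing the data. The number of animals and the counts limit the precision of weakly expressed members, with an SE of 1.07 for CCL21 and 1.02 for IL1RL1.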
